A study of Mus musculus with 26 samples.

Results

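The genes described here code for the respiratory chain and the ATP synthase of mitochondria, and they were chosen as the gene symbols of the deposited count table that start with mt-, with Nduf followed by a, b, c, s or v, with Uqcr, with Cox4 to Cox8, or with Atp5. This gave 93 of 21119 listed symbols, of which 10 are carried by the mitochondrial genome and 83 by nuclear chromosomes. The question put to them was how their RNA differed between wounded and unwounded endothelium of the mouse aorta, and whether the mitochondrially encoded and the nuclear genes moved alike.

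The respiratory chain is a row of protein complexes in the inner mitochondrial membrane that passes electrons from nutrients to oxygen and pumps protons. The ATP synthase uses the proton gradient to make ATP. Complexes I, III and IV and the ATP synthase are mosaics. A few core subunits are made inside the mitochondrion from long polycistronic transcripts of the mitochondrial DNA, and all others are imported after synthesis from nuclear messenger RNA. Endothelial cells are known for drawing much of their ATP from glycolysis, and brown fat around the aorta is known for its wealth of mitochondria.

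Bulk RNA-seq was made from C57BL6/J mice (age, sex and further genotype not given in the labels) whose aorta was wounded by mechanical pressure. The injured 48 h group held luminal flushes of the wounded abdominal aorta from 9 mice, taken 48 h after wounding. The injured 3 h group held the same kind of flush from 5 other mice at 3 h. The uninjured group was made of thoracic flushes from the 9 mice of the 48 h group. The vessel group was the homogenized abdominal aorta that remained after the flush in 3 of them. A flush is the lysate collected by pushing guanidine buffer through the lumen, which takes the endothelium and whatever else lies at the surface. Injury and aortic segment cannot be told apart, since every injured flush was abdominal and every uninjured one thoracic, and no uninjured flush was taken at 3 h. The labels sort the mice into 3 experimental batches, each holding libraries of all 4 groups.

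The injured 48 h flushes held between 3904901 and 11982411 counts each, the injured 3 h flushes between 2657169 and 4346847, the uninjured flushes between 1755773 and 5294304 and the vessel libraries between 13853003 and 15560008. Levels are given as CPM, counts scaled to a common library total, after TMM scaling, which sets most genes level between libraries. The 12 endothelial markers summed to 12392 to 19109 CPM in the injured 48 h flushes and 21201 to 25846 CPM in the injured 3 h flushes, against 20462 to 24986 CPM in the uninjured flushes and 2997 to 4916 CPM in the vessel. The 10 smooth muscle markers summed to 1166 to 1892, 1126 to 1569 and 269 to 1557 CPM in the injured 48 h, injured 3 h and uninjured flushes, against 28529 to 29446 CPM in the vessel. The smooth muscle markers Cnn1 and Des were at 0 in every uninjured flush. A pair of libraries stood apart. Injured 48 h mouse E2A had 10600 CPM of 10 fibroblast markers and 5548 CPM of 10 macrophage markers, whereas its 8 group mates had at most 1851 and 3180 CPM. Uninjured mouse E1C had 920 CPM of 8 brown adipocyte markers against at most 167 CPM in the other 8 uninjured flushes. Results that rest on either library are given with and without both.

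The sequence of mt-Co2, which codes for a catalytic core subunit of complex IV, is shown because it decides what its counts can mean. On GRCm38 it lies at chrM:7013-7696 on the plus strand. A copy, the unprocessed pseudogene Gm28661, lies at chr1:24614885-24615565 on the minus strand. The gene and the copy differed at 0 of the 681 bases compared, and the first 120 bases of both, in the sense direction of each, read as follows.
mt-Co2: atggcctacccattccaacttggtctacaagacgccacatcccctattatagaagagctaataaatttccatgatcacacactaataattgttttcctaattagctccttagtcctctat
Gm28661: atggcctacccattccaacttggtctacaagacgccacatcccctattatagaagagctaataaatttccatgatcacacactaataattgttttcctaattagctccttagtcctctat
A read of 50 bases from mt-Co2 could not be assigned to 1 of the copies: 100% of its stretches of that length also occur in another annotated transcript. The share was 98.8% for mt-Nd4l, 98.0% for mt-Nd3, 51.1% for mt-Co1, 8.2% for mt-Nd2 and 7.6% for mt-Nd5. It was 0 for mt-Cytb, mt-Nd1, mt-Nd6 and mt-Atp8. Only annotated transcripts were searched, so a share of 0 does not show that no copy lies elsewhere in the genome. How reads that match several places were counted is not stated in the labels or files. The levels of mt-Co2, mt-Nd4l and mt-Nd3 are therefore uncertain, and their differences between groups are described with that limit. mt-Nd6 lies on the minus strand at chrM:13552-14070 and overlaps the end of mt-Nd5 at chrM:11742-13565. Whether strand was used in counting is likewise not stated.

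For the nuclear genes, the stretch around the transcription start is shown for the 4 genes that were higher in the injured 48 h flushes and hold the first or the second of 3 letter patterns searched there. The first is GCGCA, any base, then GCGC, the pattern of NRF1, a transcription factor known for binding respiratory chain promoters. The second is CCGGAAG, a core pattern of the ETS family, to which the factor GABPA belongs. The third is TGACGTCA, the pattern of CREB factors, which respond to cyclic AMP. Each sequence is from RefSeq on GRCm38.p6 and runs from 250 bases before to 50 after the start, in the direction of the gene, with the matched letters in capitals, which read GCGCTTGCGC where the NRF1 pattern lies on the other strand. They belong to Atp5g3 (chr2:73911277-73911576, minus strand), a proton-carrying ring subunit of the ATP synthase, and Ndufa8 (chr2:36049289-36049588, minus strand), an accessory subunit of complex I. The others are Uqcrc1 (chr9:108936398-108936697, plus strand), a core subunit of complex III, and Ndufs8 (chr19:3912725-3913024, minus strand), a core subunit of complex I that binds iron-sulfur clusters.
Atp5g3: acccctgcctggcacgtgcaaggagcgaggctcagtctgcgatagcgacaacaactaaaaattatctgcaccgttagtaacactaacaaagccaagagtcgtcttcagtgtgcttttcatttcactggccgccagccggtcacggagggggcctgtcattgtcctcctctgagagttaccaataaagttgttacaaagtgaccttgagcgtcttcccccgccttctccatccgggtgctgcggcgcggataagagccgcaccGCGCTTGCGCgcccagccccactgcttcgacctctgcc
Ndufa8: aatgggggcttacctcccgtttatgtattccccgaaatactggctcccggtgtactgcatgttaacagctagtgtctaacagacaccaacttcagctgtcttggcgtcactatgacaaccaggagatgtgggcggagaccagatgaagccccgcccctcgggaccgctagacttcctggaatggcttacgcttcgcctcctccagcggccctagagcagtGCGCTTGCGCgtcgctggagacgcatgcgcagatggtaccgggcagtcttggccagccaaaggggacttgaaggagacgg
Uqcrc1: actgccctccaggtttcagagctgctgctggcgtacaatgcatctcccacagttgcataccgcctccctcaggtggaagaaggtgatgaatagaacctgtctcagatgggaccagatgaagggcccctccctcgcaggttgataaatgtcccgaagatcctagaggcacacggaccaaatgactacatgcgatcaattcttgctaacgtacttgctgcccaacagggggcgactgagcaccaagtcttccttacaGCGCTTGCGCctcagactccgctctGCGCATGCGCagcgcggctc
Ndufs8: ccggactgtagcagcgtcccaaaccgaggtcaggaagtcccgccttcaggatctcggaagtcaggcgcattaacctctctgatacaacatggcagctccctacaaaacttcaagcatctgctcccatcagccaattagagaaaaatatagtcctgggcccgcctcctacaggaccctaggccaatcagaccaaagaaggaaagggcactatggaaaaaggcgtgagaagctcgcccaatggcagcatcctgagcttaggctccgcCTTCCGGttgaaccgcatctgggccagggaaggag
Counted from the start site, the NRF1 letters sit at 12 to 21 in Atp5g3, at -30 to -21 in Ndufa8 and at both 5 to 14 and 30 to 39 in Uqcrc1. The site at 30 to 39 in Uqcrc1 reads the same on both strands, and the other NRF1 sites lie on the strand opposite to the gene. The ETS letters, also on the other strand, sit at 15 to 21 in Ndufs8. Searched on both strands, the NRF1 letters were in 17 of 71 windows of the 66 nuclear members found in the table (23.9%), against 4.60% of all 32851 windows of this length. The ETS letters were in 15 of the 71 windows (21.1%), against 8.86% of all windows, and the CREB letters in 3 of the 71, against 1.79% of all windows. Of the 8 members that were higher at 48 h and had a window, 3 held the NRF1 letters, 1 the ETS letters and 2 the CREB letters (Ndufa10 and Uqcrfs1, not printed). A match is only a match of letters in this window.

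The mitochondrially encoded genes took a far larger part of the reads than the nuclear ones in every library. Their 10 rows held 2.95% of the counts in the lowest, 3.88% in the median and 13.4% in the highest injured 48 h flush, and 6.43%, 4.11%, 4.39%, 6.76% and 4.66% in the 5 injured 3 h flushes (mice C1A, C1B, C2A, C2C and C3B). The uninjured flushes held 2.32%, 3.44% and 6.19% at the lowest, median and highest, and the 3 vessel libraries 11.2%, 11.3% and 10.7%. The single injured 48 h flush at the level of the vessel was E2A. The other 8 reached at most 4.92%, and the flush groups overlapped. The 83 nuclear genes together held 0.278%, 0.365% and 0.406% (lowest, median, highest) in the injured 48 h flushes and 0.234% to 0.267% at 3 h. They held 0.223%, 0.264% and 0.405% in the uninjured flushes and 0.312%, 0.306% and 0.330% in the vessel. For the nuclear share every injured 48 h flush lay above every injured 3 h flush. Uninjured E1C, at 0.405%, lay above its 8 group mates, which reached at most 0.285%.

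**Figure D1:**
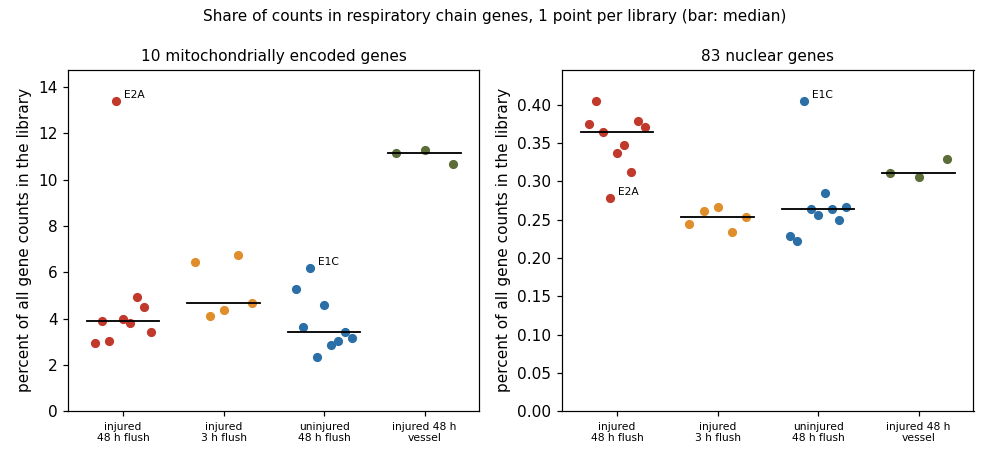
Share of all gene counts, in percent, held by the 10 mitochondrially encoded genes (left) and the 83 nuclear genes (right), with 1 point for each of 26 libraries and a bar at each group's median. Injured E2A (13.4% on the left) and uninjured E1C (0.405% on the right) are named at their points, and the axes of the panels differ in scale.

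The balance between the genomes is given as a description, with no test made of it. Counts of mitochondrially encoded genes were 7.86, 10.9 and 48.2 times those of nuclear members in the lowest, median and highest injured 48 h flush, with E2A highest and the other 8 at or below 15.7. The ratio was 15.7 to 28.9 with a median of 18.4 in the injured 3 h flushes, against 8.77, 13.8 and 23.0 in the uninjured flushes and 35.8, 36.9 and 32.5 in the vessel. The mean log2 mitochondrial share of the injured 48 h flushes was set against that of the uninjured flushes within each batch. It differed by -0.59, 0.91 and 0.40 in batches 1, 2 and 3 (0.24 over all), with E2A in batch 2. Its direction was thus not the same in each batch. The mean log2 nuclear share differed by 0.48, 0.25 and 0.44 (0.39 over all). Between the injured 48 h and injured 3 h flushes the nuclear share differed by 0.59, 0.36 and 0.48 within batches. Within the mice, the mitochondrial share was higher in the injured flush than in the uninjured flush in 6 of 9. In bulk samples such as these, fewer cells of a type and less RNA per cell cannot be told apart.

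Levels per kilobase of exon put the mitochondrially encoded genes in a wide order. In the uninjured flushes mt-Nd4l averaged 12137 CPM per kb, mt-Cytb 8422, mt-Co1 5693, mt-Nd1 4477, mt-Nd5 4212, mt-Nd2 2550 and mt-Nd6 1946. mt-Nd3, mt-Atp8 and mt-Co2 averaged only 41.3, 33.7 and 9.84 CPM per kb. Stretches shared with copies, as given above, are found at both ends of this order, in mt-Nd4l as in mt-Nd3 and mt-Co2, so the places of these 3 are uncertain. mt-Atp8 shares none. Among the nuclear members of the injured 48 h flushes, Atp5b stood at 296 CPM per kb, Atp5a1 at 111, Cox6a1 at 68.6 and Atp5c1 at 59.6. The same 4 led in the uninjured flushes at 205, 91.4, 66.9 and 50.8 CPM per kb.

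A filter on low counts left 13884 genes for the test, edgeR's quasi-likelihood test with Benjamini-Hochberg adjustment over all of them, at a threshold of 0.05. Of the members, 85 were tested: all 10 mitochondrially encoded genes and 75 nuclear ones. The 8 others (Atp5l, Cox7a1, Cox8b, Cox8c, Cox4i2, Cox6a2, Ndufa4l2 and Atp5g2) had too few reads and are described by their counts. mt-Nd4, mt-Co3, mt-Atp6 and Cox4i1 were not analysed here.

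In the endothelial flush 48 h after wounding, 11 of 75 nuclear members were higher and 4 lower than in the uninjured flush. Of the 10 mitochondrially encoded genes only mt-Co1, the catalytic core of complex IV, was higher. Over all genes tested, 24.6% were higher and 18% lower in this comparison, against 14.1% and 4.71% of the 85 members tested. The median log2 fold change was 0.17 for the mitochondrially encoded genes and 0.25 for the nuclear members, beside 0.18 for all genes. The 4 calls higher among 12 tested ATP synthase subunits, 4 among 33 complex I subunits, 2 among 8 complex III subunits and 1 among 12 complex IV subunits made up the nuclear total. The calls lower were 1 each among the complex I subunits, the 7 complex I assembly factors of the Ndufaf family, the complex IV subunits and the ATP synthase subunits.

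**Figure D2:**
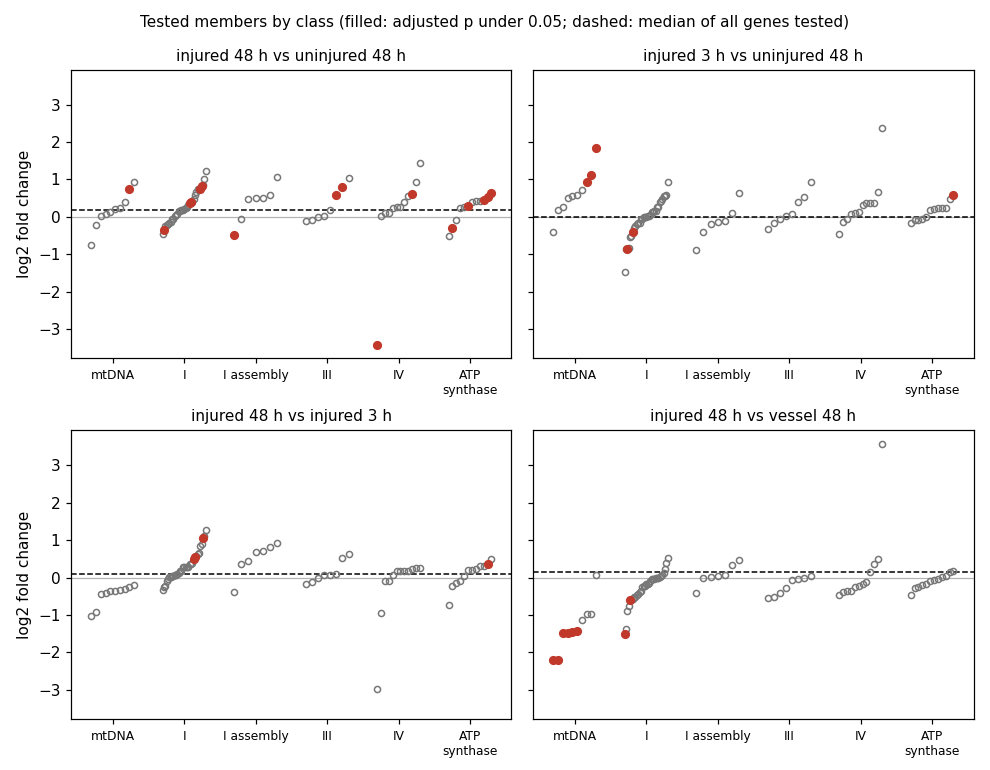
Log2 fold change of the tested members in 4 comparisons, by class (mtDNA, the 10 mitochondrially encoded genes; I, III and IV, nuclear subunits of these complexes; I assembly, Ndufaf factors; ATP synthase). Filled points have an adjusted p under 0.05, the dashed line is the median of all 13884 genes, and the mitochondrially encoded genes sit below it in the comparison with the vessel, at a median of -1.44.

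Among the ATP synthase subunits, Atp5b (chr10:128083273-128090391), the catalytic beta subunit, had 957.7, 1267 and 1458 CPM in the lowest, median and highest injured 48 h flush, against 593, 829 and 1509 CPM in the uninjured flushes. The highest uninjured value was that of E1C, and the other 8 uninjured flushes were at or below 923 CPM, under all 9 injured ones. Its log2 fold change was 0.53 ± 0.12 (SE; adjusted p = 0.00107, edgeR's quasi-likelihood test). Atp5a1, the alpha subunit of the same catalytic head, averaged 349 ± 24.2 CPM in the injured 48 h flushes and 286 ± 43.2 CPM in the uninjured flushes (SD, n = 9 each; log2 fold change 0.28, adjusted p = 0.00372 by edgeR). Atp5f1, part of the stalk that holds the head in place, averaged 46.0 ± 5.25 and 29.5 ± 9.84 CPM in these groups (0.63 ± 0.15, adjusted p = 0.00136 by edgeR). Atp5g3, the ring subunit, averaged 81.1 ± 11.9 and 59.3 ± 9.29 CPM (0.45 ± 0.10, adjusted p = 0.000700 by edgeR). All 4 of these calls held when any single library of the pair of groups was left out. Atp5j, a coupling subunit of the stalk that was named after its values were seen, was the single ATP synthase subunit called lower. It averaged 44.5 CPM in the injured 48 h flushes and 54.8 CPM in the uninjured flushes (-0.30 ± 0.09, adjusted p = 0.0129 by edgeR). Of its transcript's stretches of 50 bases, 20.2% are shared with Gabpa, the gene beside it, and with the mouse as a block its adjusted p was 0.0537.

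In complex I, which takes electrons from NADH, the core subunit Ndufs8 (chr19:3908863-3912774) had 16.1, 19.0 and 22.2 CPM in the lowest, median and highest injured 48 h flush, against 4.50, 10.1 and 20.6 CPM in the uninjured flushes. Uninjured E1C, at 20.6 CPM, was the highest of its group, and the groups overlapped. The log2 fold change was 0.83 ± 0.23 (adjusted p = 0.00621, edgeR's quasi-likelihood test). The accessory subunits Ndufa10 (60.2 against 45.7 CPM) and Ndufa8 (15.4 against 9.05 CPM) were also higher, with log2 fold changes of 0.39 ± 0.11 and 0.75 ± 0.21. Ndufs1 (chr1:63143596-63176833), the largest core subunit and the carrier of several iron-sulfur clusters, went the other way. It had 48.1, 62.3 and 70.0 CPM in the injured 48 h flushes and 52.6, 80.6 and 92.6 CPM in the uninjured flushes (-0.35 ± 0.11, adjusted p = 0.0126 by edgeR), with overlap between the groups. The assembly factor Ndufaf4 averaged 42.3 CPM in the injured 48 h flushes and 60.1 CPM in the uninjured flushes (-0.50 ± 0.17, adjusted p = 0.0244 by edgeR), a call that was lost without uninjured E1A (-0.35, adjusted p = 0.0709) and without uninjured E1B (-0.41, adjusted p = 0.0604).

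Complex III passes electrons from quinol to cytochrome c. Its Rieske iron-sulfur subunit Uqcrfs1 averaged 33.3 ± 4.74 CPM in the injured 48 h flushes and 22.0 ± 12.8 CPM in the uninjured flushes (SD, n = 9 each; log2 fold change 0.58 ± 0.23, adjusted p = 0.0391 by edgeR). The core subunit Uqcrc1 averaged 24.3 ± 4.60 and 13.7 ± 10.2 CPM (0.80 ± 0.32, adjusted p = 0.0489 by edgeR). The uninjured flushes varied widely in both, from 8.58 to 52.9 CPM for Uqcrfs1 and from 2.25 to 34.2 CPM for Uqcrc1, with E1C highest in each. Leaving out 1 library ended the call for Uqcrfs1 in 7 of 18 cases and for Uqcrc1 in 14 of 18. In complex IV, which reduces oxygen, Cox5a averaged 27.3 ± 6.12 CPM in the injured 48 h flushes and 17.7 ± 7.64 CPM in the uninjured flushes (0.62 ± 0.20, adjusted p = 0.0148 by edgeR). Cox7b2, a subunit isoform known from testis, was called lower on very few reads, 19 counts in 3 injured 48 h flushes against 55 counts in 7 uninjured ones (-3.43 ± 1.21, adjusted p = 0.0259, edgeR's quasi-likelihood test; 0.0660 with the mouse as a block). No vessel library held a Cox7b2 count, and edgeR's test did not call its difference between the injured 48 h flushes and the vessel. Against a floor of 3 counts over the vessel group its summed counts were at least 3.33-fold higher in the injured 48 h flushes. That ratio rests on the 19 counts in 3 flushes. Markers of other cells moved with this comparison: the 10 macrophage markers summed to 574 to 5548 CPM at 48 h, against 68.5 to 222 CPM in the uninjured flushes, and the endothelial and smooth muscle sums are given above. Of the macrophage markers C1qa alone was at 0 in every uninjured flush, and the part of these cells in the members' levels was not tested.

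**Figure D3:**
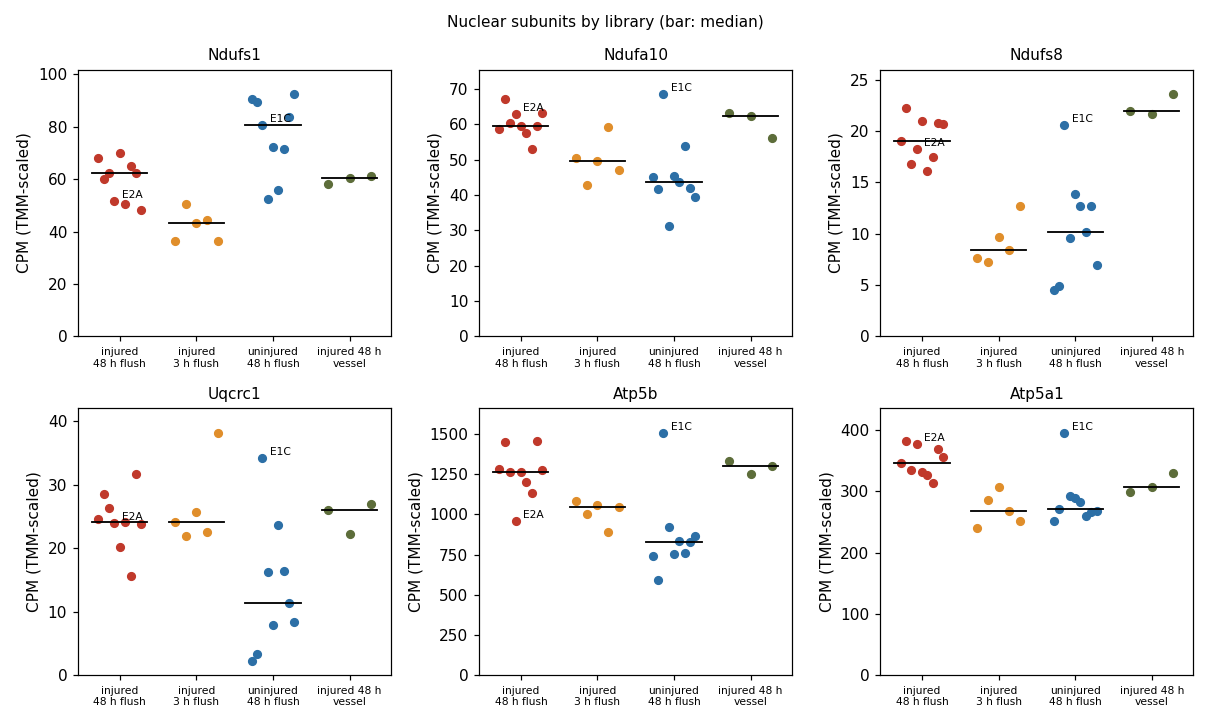
CPM (TMM-scaled) of 6 nuclear subunits in each of 26 libraries, with a bar at the group median and the names of injured E2A and uninjured E1C at their points. Ndufs1 is lower in all 5 injured 3 h flushes than in every uninjured flush, and uninjured E1C is the highest uninjured point for Ndufa10, Ndufs8, Uqcrc1, Atp5b and Atp5a1.

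The mitochondrially encoded genes at 48 h turned on single libraries. mt-Co1 had 8746, 11553 and 44450 CPM in the lowest, median and highest injured 48 h flush, against 5622, 7626 and 18348 CPM in the uninjured flushes. The extremes at the top were E2A and E1C. The log2 fold change was 0.73 ± 0.28 (adjusted p = 0.0373, edgeR's quasi-likelihood test), with 8 of 9 injured 48 h flushes above the uninjured mean of 8796 CPM. With the mouse as a block it missed the threshold (0.64, adjusted p = 0.0874), as it did in 6 of 18 fits that left out 1 library, among them the fit without E2A (0.32, adjusted p = 0.161). Of the other 9 genes mt-Atp8, an ATP synthase subunit, had the largest log2 fold change (0.93, adjusted p = 0.0626 by edgeR) and mt-Nd3, a complex I subunit, the lowest (-0.76, adjusted p = 0.148). Without E2A and E1C, mt-Co1 (0.52, adjusted p = 0.00457) and mt-Atp8 (0.77, adjusted p = 0.0236) were higher in the injured 48 h flushes. In the same fit mt-Nd2 (-0.77, adjusted p = 0.0179) and mt-Nd3 (-1.27, adjusted p = 0.0117) were lower by edgeR's test, and the median of the 10 was -0.19. In that fit 17 of 74 nuclear members were higher and 4 lower, beside 26.4% and 20.2% of all genes, and their median was 0.34 beside 0.20 for all genes. With the mouse as a block and all libraries, 13 nuclear members were higher and 2 lower, and no mitochondrially encoded gene was called, beside 25.7% higher and 16.4% lower of all genes. DESeq2's Wald test called mt-Atp8 higher in place of mt-Co1, and 16 nuclear members higher and 4 lower, beside 23.9% and 19.5% of all genes.

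The ratio of a pair of genes within a library does not depend on how libraries are scaled. mt-Nd2, a complex I subunit, had 9.90, 12.3 and 22.4 counts for every 100 counts of mt-Co1 in the lowest, median and highest injured 48 h flush and 14.8 to 20.7 in the injured 3 h flushes, against 17.7, 26.04 and 62.3 in the uninjured flushes and 12.2, 12.5 and 12.2 in the vessel. The uninjured mice E1A, E3C and E3B had the highest ratios, 62.3, 47.4 and 41.6. This pair of genes was chosen after their values were seen, so the ratio is a description with no test, and 51.1% of mt-Co1 is shared with copies as given above.

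At 3 h, mt-Atp8, mt-Co2 and mt-Co1 were higher than in the uninjured flushes, and no mitochondrially encoded gene was lower. Of the 75 nuclear members 1 was called higher and 2 lower, beside 16.1% and 11.1% of all genes. DESeq2's Wald test called 2 of the 3 mitochondrially encoded genes, mt-Atp8 and mt-Co2, beside 14.9% of all genes higher. The medians in the edgeR fit were 0.57 for the mitochondrially encoded genes, 0.02 for the nuclear members (-0.02 with DESeq2's size factors) and 0 for all genes. At an unadjusted p under 0.05, 4 of 10 mitochondrially encoded and 7 of 75 nuclear members would pass, beside 5319 of 13884 genes. Without E2A and E1C, 7 of 74 nuclear members were higher and 3 lower, beside 18.6% and 12.9% of all genes, with a median of 0.15 beside 0.01. The 7 were Atp5b, Atp5g3, Atp5f1, Uqcrfs1, Uqcrc1, Cox5a and Ndufa8, and the lower ones Ndufs1, Ndufs4 and Ndufaf5.

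mt-Atp8 had 24.5, 20.3, 18.1, 35.2 and 28.1 CPM in the injured 3 h flushes, against 1.25, 6.47 and 19.0 CPM at the lowest, median and highest of the uninjured flushes. Every injured 3 h flush but C2A, at 18.1 CPM, lay above all uninjured ones, of which E1C was highest. The log2 fold change was 1.85 ± 0.46 (adjusted p = 0.00348, edgeR's quasi-likelihood test), and no single library left out ended the call. mt-Co1 had 19529, 13347, 12676, 21991 and 15795 CPM in the injured 3 h flushes, and its difference from the uninjured flushes was 0.92 ± 0.32 (adjusted p = 0.0350 by edgeR). mt-Co2, with the copy shown above, had 16.1, 12.8, 13.1, 18.8 and 12.4 CPM there and averaged 6.73 CPM in the uninjured flushes (1.12 ± 0.39, adjusted p = 0.0336 by edgeR). Leaving out 1 library ended the mt-Co1 call in 6 of 14 cases and the mt-Co2 call in 5 of 14. Without E2A and E1C, 7 of the 10 were higher at 3 h, all but mt-Nd2, mt-Nd6 and mt-Nd3. Their log2 fold changes ran from 0.59 for mt-Nd5 to 2.22 for mt-Atp8, the median of the 10 was 0.68, and 18.6% of all genes were called higher.

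Platelet, neutrophil and erythroid markers moved with the 3 h group. The 8 platelet markers summed to 625 to 1318 CPM at 3 h, against 68.6 to 166 CPM in the uninjured flushes. The 8 neutrophil markers summed to 110 to 4863 CPM at 3 h, against 34.9 to 188 CPM, and the 8 erythroid markers to 278 to 3231 CPM, against 34.2 to 460 CPM. Their part in the levels of the mitochondrially encoded genes was not tested.

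Of the 3 nuclear members called at 3 h, Ndufs1 had the log2 fold change farthest from 0. It had 36.4, 50.6, 43.2, 44.4 and 36.4 CPM in the injured 3 h flushes, against 52.6, 80.6 and 92.6 CPM (lowest, median, highest) in the uninjured flushes, and the groups did not overlap. The log2 fold change was -0.86 ± 0.14 (adjusted p = 3.5e-05, edgeR's quasi-likelihood test), and the call held in every alternative tried. Ndufs4, an accessory subunit at the NADH end of complex I, had 26.2, 32.8, 35.3, 41.7 and 33.1 CPM in the injured 3 h flushes and averaged 45.0 CPM in the uninjured flushes (-0.41 ± 0.15, adjusted p = 0.0393 by edgeR), a call lost in 7 of 14 fits that left out 1 library. Atp5f1 was the 1 nuclear member called higher, with 38.9, 50.6, 37.8, 49.0 and 47.1 CPM in the injured 3 h flushes and a mean of 29.5 CPM in the uninjured flushes (0.59 ± 0.17, adjusted p = 0.0119 by edgeR).

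The times were set against each other directly, since both comparisons above share the uninjured flushes. Between the injured 48 h and injured 3 h flushes 4 of 75 nuclear members were higher and none lower, beside 9.7% higher and 8.59% lower of all genes. By the same edgeR test no mitochondrially encoded gene was called (1 of 10 at an unadjusted p under 0.05, beside 4364 of 13884 genes, and mt-Co2 lower by DESeq2's Wald test, which called 8.57% of all genes lower). The median log2 fold change was -0.35 for the mitochondrially encoded genes, 0.18 for the nuclear members and 0.09 for all genes, and all 10 mitochondrially encoded genes had a negative value. Atp5a1 had 313 to 383 CPM in the injured 48 h flushes, against 240, 286, 307, 269 and 252 CPM in the injured 3 h flushes (0.37 ± 0.09, adjusted p = 0.00484 by edgeR). Ndufs8 had 16.1 to 22.2 CPM at 48 h, against 7.61, 7.19, 9.69, 8.42 and 12.7 CPM at 3 h (1.07 ± 0.29, adjusted p = 0.0101 by edgeR). In both genes every 48 h flush lay above every 3 h flush. For Ndufs1, at 48.1 to 70.0 CPM in the injured 48 h flushes and 36.4 to 50.6 CPM in the injured 3 h flushes, the ranges overlapped and the log2 fold change was 0.50 ± 0.13 (adjusted p = 0.00951 by edgeR). Markers of several cell types moved with this comparison. Of 9 tested macrophage markers 7 were higher at 48 h, with sums of 574 to 5548 CPM at 48 h against 184 to 1020 CPM at 3 h. Of 8 neutrophil and 8 erythroid markers 6 each were lower, with neutrophil sums of 111 to 581 CPM at 48 h against 110 to 4863 CPM at 3 h, and erythroid sums of 114 to 502 CPM against 278 to 3231 CPM. The platelet markers, 3 of 6 lower, summed to 159 to 561 CPM at 48 h against 625 to 1318 CPM at 3 h, and 6 of 12 endothelial markers were lower and 1 higher. At 48 h Itga2b of the platelet markers, and at 3 h C1qa of the macrophage markers, had no count. The part of these cells in the members' levels was not tested.

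Without E2A and E1C the same comparison called 9 of the 10 mitochondrially encoded genes lower at 48 h, all but mt-Nd3, beside 10.1% of all genes lower, with a median of -0.80. The log2 fold changes ran from -0.62 for mt-Co1 to -1.50 for mt-Co2 (adjusted p = 0.000188, edgeR's quasi-likelihood test), with mt-Atp8 at -1.44 (adjusted p = 0.000827) and mt-Nd2 at -0.998 (adjusted p = 0.0150). Genes of the 10 were also called lower when E2A alone was left out. The absence of a call with all 26 libraries thus depended on the library of E2A. Of the nuclear members 6 were higher and none lower in the fit without E2A and E1C, beside 10.4% of all genes higher.

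**Figure D4:**
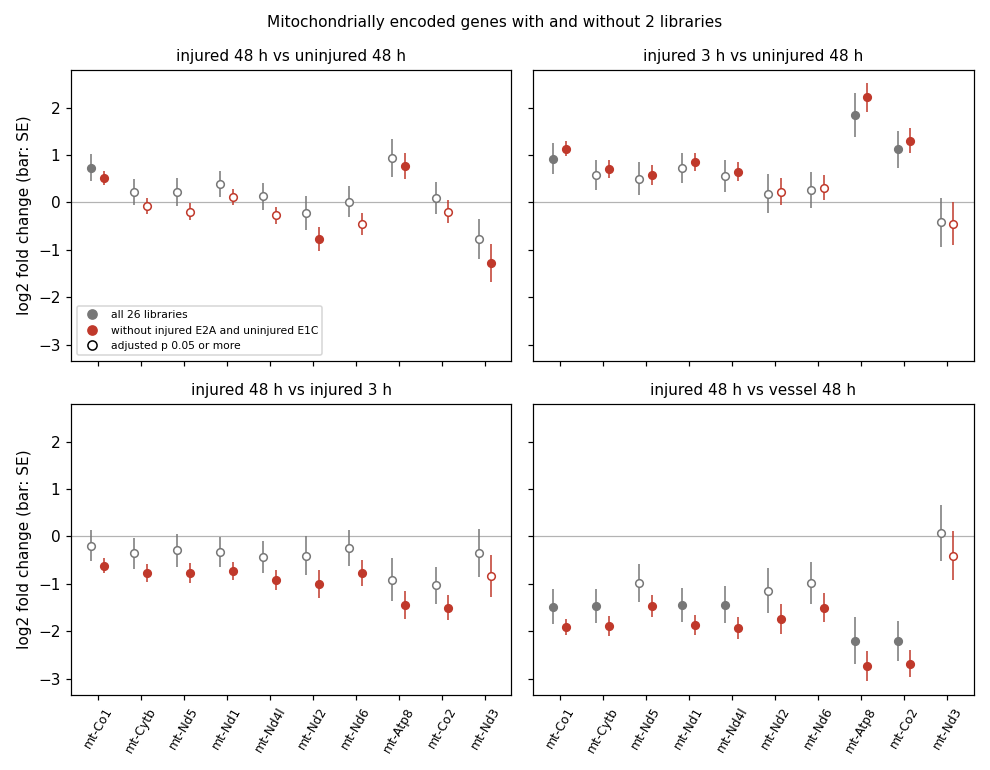
Log2 fold change (points) and its SE (bars) of the 10 mitochondrially encoded genes in 4 comparisons, fitted with all 26 libraries (grey) and without injured E2A and uninjured E1C (red). Open points have an adjusted p of 0.05 or more, and in the comparison of the injured 48 h with the injured 3 h flushes 9 red points are filled and lie between -0.62 and -1.50, whereas no grey point is filled.

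Against the vessel that remained after the flush, 6 of the 10 mitochondrially encoded genes were lower and none was higher in the injured 48 h flushes, beside 13.5% lower and 22% higher of all genes. Of the 75 nuclear members 1 was higher and 2 were lower. The medians stood far apart, at -1.44 for the mitochondrially encoded genes and -0.13 for the nuclear members, beside 0.15 for all genes. The nuclear median was 0.12 when libraries were scaled by their totals only, which moved the median of all genes by 0.25. mt-Co1 averaged 14612 CPM in the injured 48 h flushes, against 41411, 43684 and 37218 CPM in the 3 vessel libraries (-1.48 ± 0.37, adjusted p = 0.00239, edgeR's quasi-likelihood test). E2A, at 44450 CPM, lay above the vessel while the other 8 flushes, at or below 12831 CPM, lay under it. mt-Cytb, the quinol-oxidizing core of complex III, averaged 11273 CPM in the injured 48 h flushes and 31202 CPM in the vessel (-1.47 ± 0.36). mt-Nd1, the complex I subunit next to the quinone site, averaged 5648 and 15387 CPM (-1.45 ± 0.36). Of the mitochondrially encoded genes, those with the largest differences were mt-Co2 (7.24 and 33.2 CPM, -2.21 ± 0.42) and mt-Atp8 (13.6 and 61.7 CPM, -2.20 ± 0.50). mt-Nd4l was lower by the same test (-1.44 ± 0.39, adjusted p = 0.00474 by edgeR, 0.0503 with the mouse as a block). That fit called 5 mitochondrially encoded genes and 1 nuclear member, Atp5c1, lower and none higher, beside 9.56% lower and 15.5% higher of all genes. DESeq2's Wald test called 6 mitochondrially encoded genes and 7 nuclear members lower, beside 13.3% of all genes.

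The complex I genes mt-Nd2, mt-Nd5 and mt-Nd6 had log2 fold changes of -1.14, -0.98 and -0.98 against the vessel with all libraries (adjusted p = 0.0625, 0.0550 and 0.0874 by edgeR). Without E2A and E1C they were lower too, which made 9 of 10 with a median of -1.87, beside 15.3% of all genes lower. mt-Nd3 was not called in either fit (0.07 with all libraries). The smooth muscle markers summed to at most 1892 CPM in the injured 48 h flushes, against 28529 to 29446 CPM in the vessel. All 10 were lower in the flushes, as were 6 of 7 tested brown adipocyte markers (69.9 to 143 CPM in the injured 48 h flushes, against 360 to 733 CPM in the vessel). Much of the vessel sum was the marker Dio2, at 371, 408 and 136 CPM in E1A, E2A and E3A. The marker Ucp1 had 143, 3.26 and 1.28 CPM there, so the sum is no measure of brown fat alone. Of 10 fibroblast markers 8 were lower (430 to 10600 CPM in the injured 48 h flushes, at most 1851 CPM without E2A, against 7351 to 9052 CPM in the vessel). The part of the mix of cells in the mitochondrial level was not tested.

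The nuclear calls against the vessel were Ndufv3, Ndufb9 and Cox7a2l, each without overlap between the groups. Ndufv3 (chr17:31520115-31531331), a small subunit of the NADH-binding arm of complex I, had 11.4 to 24.2 CPM in the injured 48 h flushes, against 43.4, 57.1 and 50.5 CPM in the vessel (-1.50 ± 0.51, adjusted p = 0.0221 by edgeR). Ndufb9, an accessory subunit of the membrane arm, averaged 30.2 CPM in the injured 48 h flushes and 45.8 CPM in the vessel (-0.60 ± 0.20, adjusted p = 0.0224 by edgeR). Cox7a2l, a factor known for joining complexes III and IV into supercomplexes, averaged 45.6 CPM in the injured 48 h flushes and 33.1 CPM in the vessel (0.46 ± 0.15, adjusted p = 0.0180 by edgeR). None of the 3 passed with the mouse as a block (adjusted p = 0.132 for Ndufv3, 0.0663 for Ndufb9 and 0.112 for Cox7a2l). The transcripts of Ndufb9 and Cox7a2l share 23.4% and 17.7% of their 50-base stretches with another gene.

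Several complex IV subunits come in a common form and a form restricted to some tissues or to low oxygen, and the restricted forms marked single libraries and the vessel. Ndufa4l2 (chr10:127514967-127517154), the hypoxia-linked relative of Ndufa4, had no count in any of the 23 flushes and 15, 9 and 18 counts in the vessel libraries. Against a floor of 3 counts over the group it was at least 26.6-fold lower in the injured 48 h flushes than in the vessel. Cox4i2 (chr2:152754173-152765037), the lung and low-oxygen form of subunit 4, had 3 counts in 1 injured 48 h flush, 2 counts in 1 injured 3 h flush and none in the uninjured flushes, against 17, 16 and 9 counts in the vessel. In the injured 48 h flushes it was 26.6-fold lower than in the vessel, with a 95% counting interval of 8.51 to 134. Fitted without the low-count filter, both were lower in the injured 48 h flushes than in the vessel (adjusted p = 0.0129 for Cox4i2 and 0.00676 for Ndufa4l2, edgeR's quasi-likelihood test), beside 14.5% lower and 14.6% higher of all genes in that fit.

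Among the uninjured flushes, Cox8b and Cox7a1, the forms of heart, skeletal muscle and brown fat, lay almost wholly in 1 library. Cox8b had 38 of its 39 uninjured counts in E1C (9.91 CPM), and Cox7a1 29 of its 32 (7.56 CPM). In the injured 48 h group Cox8b had 9 counts, 5 of them in E2A, and Cox7a1 had 14 counts, 9 of them in E2A. The vessel libraries held 31, 26 and 15 counts of Cox8b and 14, 11 and 2 of Cox7a1. Ucp1, which uncouples the respiratory chain in brown fat and is no member, had 1857 counts (484 CPM) in uninjured E1C and none in the other 8 uninjured flushes. It had 31, 8 and 45 counts in injured 48 h mice E1A, E1B and E1C, none in the other 6, and 1760, 45 and 17 counts in the vessel. The part of brown fat RNA in the levels of E1C was not tested.

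**Figure D5:**
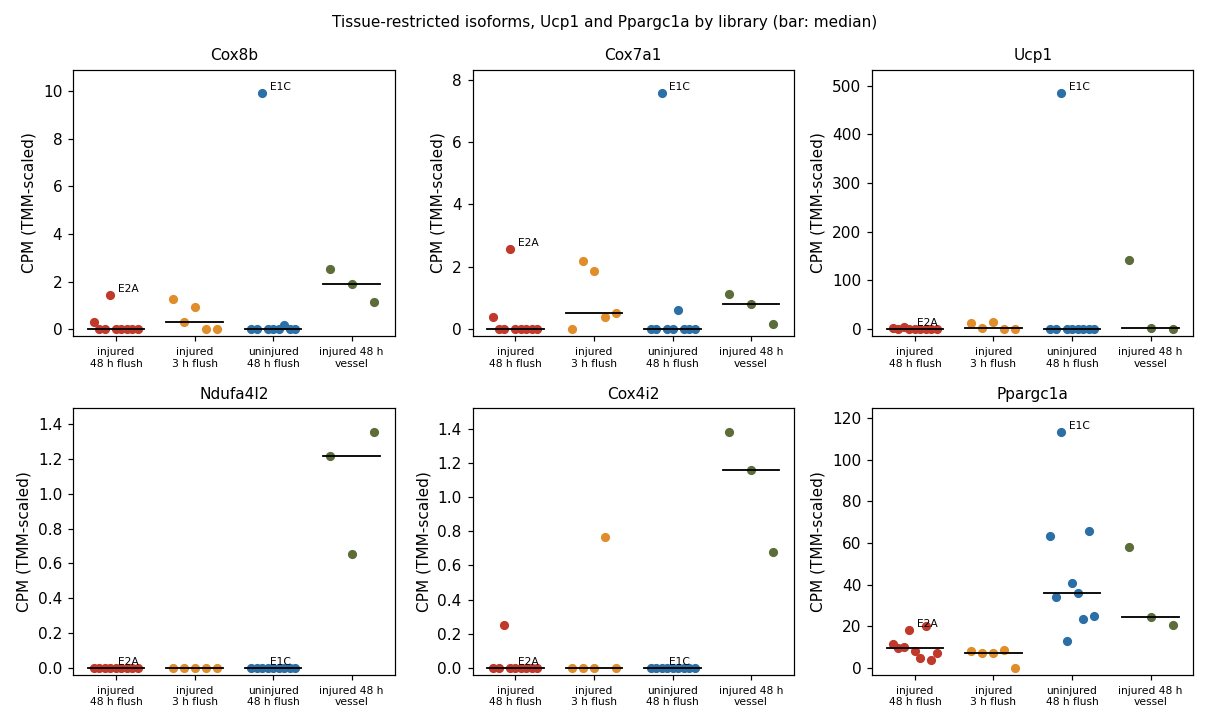
CPM (TMM-scaled) of 4 tissue-restricted subunit forms and of Ucp1 and Ppargc1a in each of 26 libraries, with a bar at the group median and the names of injured E2A and uninjured E1C at their points. Cox8b, Cox7a1 and Ucp1 peak in uninjured E1C, at 9.91, 7.56 and 484 CPM, and Ndufa4l2 is above 0 only in the vessel.

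The common forms were called in no comparison, which does not show that their levels were equal. Cox6a1 averaged 48.2, 51.1, 46.9 and 63.2 CPM in the injured 48 h, injured 3 h, uninjured and vessel groups, Cox6b1 17.0, 15.1, 14.3 and 19.9 CPM, and Cox8a 19.5, 20.8, 16.0 and 26.7 CPM. Cox7a2 averaged 24.4, 20.6, 22.5 and 26.7 CPM and Ndufa4 40.0, 35.2, 36.9 and 44.7 CPM in the same order. Of the ring subunit genes of the ATP synthase, which code for the same mature protein, Atp5g1 averaged 8.93, 14.9, 12.8 and 7.92 CPM, without a call. Atp5g2 had 7, 0, 1 and 10 counts in all, and of the 3 only Atp5g3 was called, as given above. The restricted forms Cox6a2 and Cox8c had at most 3 and 7 counts in a group, and Cox6b2 had 52, 30, 12 and 45 counts in the injured 48 h, injured 3 h, uninjured and vessel groups. Atp5l, a membrane subunit of the ATP synthase, had 80 counts in the injured 48 h flushes, 2 in the injured 3 h flushes and 23 in the uninjured flushes. Per total it was 8.17-fold higher at 48 h than at 3 h, with a 95% counting interval of 2.19 to 68.6.

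The genes that work beside the members were taken from lists of their roles. Of 17 tested genes of the tricarboxylic acid cycle, the source of the electrons, 9 were higher and none lower in the injured 48 h flushes than in the uninjured flushes, beside 24.6% of all genes higher. Citrate synthase, Cs, averaged 203 CPM in the injured 48 h flushes and 136 CPM in the uninjured flushes (0.57 ± 0.12, adjusted p = 0.000605 by edgeR), and it was also higher than at 3 h (0.45, adjusted p = 0.0329). Malate dehydrogenase 2, Mdh2, was higher at 48 h (0.57, adjusted p = 0.00194 by edgeR). At 3 h 1 of the 17, Dlst, was higher (0.49, adjusted p = 0.0299 by edgeR). Against the vessel 3 were lower in the injured 48 h flushes, beside 13.5% of all genes. Of these, Sucla2 (-1.01) and Ogdh (-0.59) had the smallest p.

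Complex II and cytochrome c, the nuclear-only links of the chain, split. Sdha, the flavoprotein of complex II, averaged 203 CPM in the injured 48 h flushes and 258 CPM in the uninjured flushes (-0.34 ± 0.07, adjusted p = 0.000743 by edgeR), and the membrane anchor Sdhc was higher (0.47, adjusted p = 0.0427). Sdhb, the iron-sulfur subunit, was not called (0.82, adjusted p = 0.101 by edgeR), and neither it nor Sdha was called in the other comparisons. Cycs, cytochrome c, had only 39 counts in the injured 48 h flushes and none in the injured 3 h or uninjured flushes. The list also holds Cyc1, a subunit of complex III. None of the 5 tested genes of this list was called in the other 3 comparisons.

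Of 72 tested genes of the mitochondrial ribosome, which translates the mitochondrially encoded members, 18 were higher and 3 lower in the injured 48 h flushes than in the uninjured flushes, beside 24.6% and 18% of all genes, and the median was 0.65 beside 0.18. The share called higher, 25%, was near that of all genes. At 3 h 3 were higher and 3 lower, beside 16.1% and 11.1% of all genes, with a median of 0.28. Of 30 assembly factors of complexes III, IV and V, 5 were higher (16.7%) and 2 lower (6.67%) at 48 h, both under the shares of all genes just given. The smallest p were those of the ATP synthase factor Tmem70 (0.95, adjusted p = 0.000653 by edgeR) and of Coa5 (0.44, adjusted p = 0.00246), a complex IV factor. Of 7 assembly factors of complex I that the symbol rule does not take in, Tmem126b was lower at 3 h (-0.62, adjusted p = 0.00164 by edgeR) and higher at 48 h than at 3 h (0.51, adjusted p = 0.0110), and none was called at 48 h against the uninjured flushes.

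Of 21 tested genes that copy, transcribe or mature mitochondrial DNA and RNA, 2 were higher and 4 lower at 48 h and none higher and 4 lower at 3 h, both against the uninjured flushes. Of all genes 24.6% were higher and 18% lower at 48 h and 16.1% and 11.1% at 3 h, so the 19% lower at 48 h was near the share of all genes. Ssbp1, the protein that coats single-stranded mitochondrial DNA during copying, had 15.2, 20.4 and 35.0 CPM in the injured 48 h flushes (lowest, median, highest) and 26.8 to 38.5 CPM in the injured 3 h flushes, against 39.4, 60.9 and 77.0 CPM in the uninjured flushes. Neither injured group overlapped with the uninjured flushes. The log2 fold changes were -1.39 ± 0.17 at 48 h (adjusted p = 6.5e-07 by edgeR) and -0.75 ± 0.20 at 3 h (adjusted p = 0.00697). Mterf4, which takes part in assembling the mitochondrial ribosome, was lower at 48 h (-1.07, adjusted p = 0.000323 by edgeR). Fastkd2, an RNA granule protein, was lower at 3 h (-0.94, adjusted p = 0.0118 by edgeR). Lrpprc, which stabilizes mitochondrial messenger RNA, was higher at 48 h (0.55, adjusted p = 0.0220 by edgeR). Tfam, which packs the mitochondrial DNA and starts its transcription, averaged 28.1 and 30.3 CPM in the injured 48 h and injured 3 h flushes and 31.7 CPM in the uninjured flushes and was called in no comparison (-0.17, adjusted p = 0.355 by edgeR at 48 h). Neither the mitochondrial RNA polymerase Polrmt nor its partner Tfb2m was called (adjusted p = 0.148 and 0.05005 by edgeR at 48 h against the uninjured flushes, the second just above the threshold).

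Of 11 tested nuclear regulators of respiration, 5 were higher and 3 lower at 48 h than in the uninjured flushes, beside 24.6% and 18% of all genes. Ppargc1a, the coactivator known for raising respiratory chain genes, had 3.91, 9.37 and 20.2 CPM in the injured 48 h flushes and 8.04, 7.19, 7.19, 8.42 and 0 CPM in the injured 3 h flushes, against 12.9, 35.9 and 113 CPM in the uninjured flushes. The 3 h flushes lay under all uninjured ones, and the highest uninjured value was that of E1C. The log2 fold changes were -2.17 ± 0.45 at 48 h (adjusted p = 0.000491 by edgeR) and -2.92 ± 0.61 at 3 h (adjusted p = 0.000737), and without E2A and E1C they were -2.01 and -2.63. Esrra, a nuclear receptor partner of that coactivator, had 120 counts in 7 of 9 injured 48 h flushes, against 1 count in the uninjured flushes, a ratio per total of 42.8 (95% counting interval 7.54 to 1706). Pprc1, a coactivator of the same family, was higher at 3 h (69.7 against 18.6 CPM, log2 fold change 1.87, adjusted p = 0.000526 by edgeR). It ran from 25.4 to 65.6 CPM in the injured 48 h flushes, against 0 to 36.0 CPM in the uninjured flushes. Its test at 48 h is not given here. Nrf1 was higher at 48 h (0.62, adjusted p = 0.0228 by edgeR), and Gabpa was higher at 48 h (0.27, adjusted p = 0.0129) and at 3 h (0.28, adjusted p = 0.0395). Ppara had no count in either injured group, 14 counts in the uninjured flushes, all of them in E1C, and 294 in the vessel. Without E1C it thus had no count in any flush. Ppargc1b had 7 counts in the injured 48 h flushes, all in that of mouse E1C, none in the other flushes and 214 in the vessel.

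Of 6 tested genes known as low-oxygen switches of energy use, Ldha, which makes lactate, was higher in the injured 48 h flushes (0.78, adjusted p = 5.12e-06 by edgeR) and in the injured 3 h flushes (0.71, adjusted p = 0.000161) than in the uninjured flushes. Higd1a, a small protein that binds complex IV, was lower at 48 h than in the uninjured flushes (-0.85, adjusted p = 0.0131 by edgeR) and than in the vessel (-2.02, adjusted p = 3.57e-05). Bnip3l, a receptor for the removal of mitochondria, was higher at 3 h (0.44, adjusted p = 0.00842 by edgeR) and lower at 48 h than at 3 h (-0.57, adjusted p = 0.00135).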

How the data were processed

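Whole-number read counts per gene symbol were taken, as raw counts, from the table that the authors deposited for 26 libraries of mouse aorta. Per the submitters' processing notes HISAT2 2.0.3, HTSeq, DESeq2 1.14.1 and GRCm38 were used, with no roles given. The annotation, the strand setting, filters and the treatment of reads with several matches are not stated in the labels or files. No molecular identifiers are described, so intervals and the floor of 3 counts cover counting error only. Column headers write 0 h where the sample labels say 3 h, and 3 h was kept.

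The deposited counts went unchanged into edgeR 4.0.16 under R 4.3.3: a quasi-likelihood fit, two-sided, with TMM scaling, a low-count filter by group, all 26 libraries together and no covariate. Benjamini-Hochberg adjustment ran over 13884 genes, with a threshold of 0.05. Each library of a group is a separate mouse. The labels give the same mouse for injured, uninjured and vessel samples, so the samples are paired, and a fit with the mouse as a block was an alternative. Deviations from the group means within the 9 mice correlated at -0.13 to 0.21. DESeq2 1.42.0, other scalings, no filter, leaving out libraries or batches, and leaving out E2A and E1C together (chosen after seeing the data) were further alternatives. No libraries of a group were repeats, since their chi-square for each degree of freedom was never under 7.21. Scripts were tested on simulated data.

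Members, lists and tests were chosen with earlier results of these data known. Named genes were all mitochondrially encoded genes. In each comparison they also were, of the nuclear members called, up to 4 complex I, 3 complex III, 3 complex IV and 3 ATP synthase subunits and 2 Ndufaf factors by smallest p. The isoform groups and, outside the members, up to 2 genes per list plus a fixed set of regulators were added. Of the nuclear members, 1 is counted in the totals but not reported here by name. Positions of 92 members are from GENCODE vM21 (GRCm38), and Atp5sl was not placed. Shared 50-base stretches were counted over GENCODE transcripts, and promoters are from RefSeq.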

Additional observations from a re-analysis of the deposited data

Results flagged for a closer look

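In groups of 4 to 10 libraries, the highest or lowest value was set against the gap that Dixon's test allows at 95%. Of 99 groups of values looked at, 30 held a value beyond it. Chance alone gives about 1 in 20 only in independent groups of normal values. These groups share libraries, and many of the genes were taken because they were called. The 30 therefore cannot be set against that rate. Most sat in a pair of libraries.

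Injured 48 h mouse E2A stood above its 8 group mates in its mitochondrial share of counts (13.4%) and its ratio of mitochondrial to nuclear counts (48.2). It did so in all 10 mitochondrially encoded genes, with 44450 CPM of mt-Co1, 33950 of mt-Cytb, 29238 of mt-Nd5, 16916 of mt-Nd1, 12987 of mt-Nd4l, 8426 of mt-Nd2, 3518 of mt-Nd6, 48.0 of mt-Atp8, 23.7 of mt-Co2 and 28.0 of mt-Nd3. The same library was high in Cox8b (1.43 CPM) and Cox7a1 (2.57 CPM).

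Uninjured mouse E1C stood above its group in the nuclear share (0.405%), in mt-Co1 (18348 CPM) and mt-Atp8 (19.0 CPM), in the muscle and brown fat forms Cox8b (9.91 CPM) and Cox7a1 (7.56 CPM), and in Atp5b (1509 CPM), Atp5a1 (396 CPM), Uqcrfs1 (52.9 CPM), Cox5a (35.7 CPM) and Ndufb9 (48.3 CPM). Uninjured mouse E1A stood above it in mt-Nd2 (5669 CPM), mt-Nd6 (2143 CPM) and mt-Nd3 (36.5 CPM), and uninjured E2B in Atp5j (75.9 CPM). In the injured 3 h group, Uqcrc1 was high in C3B (38.2 CPM) and Cox7a2l was high in C2A (52.5 CPM).

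By edgeR's test of the injured 48 h against the injured 3 h flushes, levels differed in Atp5a1 (0.37 on the log2 scale), Ndufs1 (0.50) and Ndufs8 (1.07). No uninjured flush was taken at 3 h, so an effect of injury was not tested here.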

How the results depend on the processing

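No count or gene turned to the opposite call. With each setting changed alone, 3936 values of single genes stayed on their side of the threshold, 193 lost the call and 89 gained it. The counts that follow show only how the calls moved with the setting. The share of all genes called in the same fit is not set beside them here, so they are no results about the members. For the injured 48 h against the uninjured flushes (12 members higher, 4 lower), the replicate block by mouse (paired fit) gave 2 lower. Without batch 1, 1 was lower, without batch 2, 6 were higher, without batch 3, 4 were higher and 1 lower, and without E2A and E1C, 19 were higher. Leaving out 1 library gave 9 to 19 higher, with 19 without uninjured E1C, and 3 to 6 lower. The median of the mitochondrially encoded genes then ran from -0.31 to 0.29. For the injured 3 h against the uninjured flushes (4 higher, 2 lower), library totals gave 2 and 7, and a fit without the filter, of the pair of groups alone, or without batch 1 gave 1 lower each. Without batch 2, 2 were higher, without batch 3, 0 were higher and 1 lower, and without E2A and E1C, 14 were higher. DESeq2 gave 4 lower. Leaving out 1 library gave 2 to 8 higher (8 without uninjured E1C, 2 without uninjured E2A, C1A or C2C) and 1 to 3 lower (1 without uninjured E1A, E1B or E3C, or C1A, C2A or C3B). For the injured 48 h against the injured 3 h flushes (4 higher, 0 lower), library totals gave 15 higher and a nuclear median of 0.43, and the pair of groups alone 7 and 1. Without batch 1, 2 were higher, without batch 2, 1 was lower, and without E2A and E1C, 9 were lower. DESeq2 gave 8 and 1. Leaving out 1 library gave 4 to 6 higher and 0 to 8 lower, with 8 without E2A. Against the vessel (1 higher, 8 lower), library totals gave 3 higher and a nuclear median of 0.12, no filter 0 and 13, and the pair of groups alone 21 lower. The replicate block and each batch left out gave 0 higher, no batch 3 also 2 lower, and DESeq2 13 lower. Leaving out 1 library gave 0 to 1 higher (0 without any 1 of the 3 vessel libraries) and 6 to 11 lower. With totals that leave out the mitochondrial genes, the nuclear share of the vessel was 0.351% (0.312% with them). Library totals moved the median of all genes by -0.13, 0.24 and 0.25 in the last 3 comparisons, and changes there are relative to that shift. Where a batch is left out fewer libraries remain, and for the other settings the cause was not tested. The uninjured flushes were the shallowest, and members at a few CPM have few reads there.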
